A study of Rattus norvegicus with 12 samples.

Results

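The genes described here are 6 genes with which the small intestine cuts sugars and takes them up: Si, Treh, Lct, Slc5a1, Slc2a2 and Slc2a5. They were chosen by name from the deposited count table, which held a row for each of the 6 among 18749 genes, and they were followed through every library. NCBI Gene numbers in that table were 497756 for Si, 60576 for Treh, 116569 for Lct, 25552 for Slc5a1, 25351 for Slc2a2 and 65197 for Slc2a5. The title of the study places it in the adaptation of the small intestine to removal of the whole colon.

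Polyadenylated RNA of rat intestine was sequenced in 12 libraries, 4 in each of 3 groups. Libraries postSTC1, 2, 5 and 7 are labelled postoperative, preSTC1, 5, 7 and 9 preoperative, and preCTC1, 5, 7 and 9 as taken prior to a sham operation. All 12 are labelled wild type, intestine and batch 1, and the labels name no strain, age, sex, time after the operation or segment of the gut. Neither STC nor CTC is spelled out there, no library taken after a sham operation was analysed here, and the labels do not say whether the libraries of a group came from separate animals. The p-values therefore measure the spread between these libraries, part of which may be technical.

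Sugars from food are cut to single sugars at the brush border, the folded surface of the absorptive enterocytes. Sucrase-isomaltase (Si) cuts sucrose and starch fragments, trehalase (Treh) cuts trehalose, and lactase (Lct) cuts milk sugar and in mammals is typically lost from much of the small intestine after weaning. The sodium-coupled transporter SGLT1 (Slc5a1) then carries glucose and galactose into the cell, GLUT5 (Slc2a5) carries fructose, and GLUT2 (Slc2a2) passes sugars on to the blood. Most of this work is done in the duodenum and jejunum, and the colon does little of it.

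The libraries held 30095656 to 39374682 counted reads each. Levels are given in CPM, read counts divided by a library size that was scaled by TMM, a factor computed over all genes, and levels of different genes are compared only by FPKM, which also divides by gene length. Lists of marker genes showed that the groups were not the same kind of intestine. The 8 markers of small intestinal enterocytes summed to 77.8 to 143 CPM in preCTC, 9960 to 11775 CPM in preSTC and 4751 to 13090 CPM in postSTC, and 8 of 8 were higher in preSTC than in preCTC. The 10 colon markers summed to 2095 to 4512 CPM in preCTC, 185 to 244 CPM in preSTC and 397 to 930 CPM in postSTC. Summed markers of epithelial cells spanned 10455 to 14520 CPM in preCTC, 14210 to 17596 CPM in preSTC and 7534 to 14889 CPM in postSTC. This list was not even between the baselines, since edgeR called 4 of its 10 genes higher in preSTC than in preCTC and 0 lower. Transcripts of male accessory glands took 42.1% of the reads of postSTC7 and at most 0.0341% of those of any other library. The library postSTC7 thus stood apart, as did postSTC1 by its markers of proximal small intestine, given further on. The differences between postSTC and preSTC are therefore given with and without both. In whole tissue, fewer cells of a type and less RNA per cell cannot be told apart.

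The stretches of DNA just upstream of Si, Lct and Slc5a1 are shown first, because Si and Lct are the enzyme genes on which the postoperative pattern turns and Slc5a1 is the transporter gene they are set against. Each is the 250 bases before the start of the gene in RefSeq's rat assembly GRCr8, read 5′ to 3′ on the gene's own strand, which is the minus strand for all 3. RefSeq's promoter table matched 5 of the 6 genes. Capitals mark letters searched for on both strands: the CDX motif in its forms TTTAT or TTTAC, and the GATA motif in 4 forms. Those forms were AGATAA and, with a first letter T, TGATAA. The forms ending in G were AGATAG and, with a first letter T, TGATAG. CDX and GATA proteins are transcription factors of the gut epithelium that are known to act on the promoters of sucrase-isomaltase and lactase.
Si, chr2:159884903-159885152: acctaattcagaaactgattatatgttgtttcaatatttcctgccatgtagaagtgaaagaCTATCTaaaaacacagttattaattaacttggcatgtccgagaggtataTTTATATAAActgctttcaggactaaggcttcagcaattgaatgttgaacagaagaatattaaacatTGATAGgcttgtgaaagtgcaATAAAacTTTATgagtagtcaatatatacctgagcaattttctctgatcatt
Lct, chr13:42376873-42377122: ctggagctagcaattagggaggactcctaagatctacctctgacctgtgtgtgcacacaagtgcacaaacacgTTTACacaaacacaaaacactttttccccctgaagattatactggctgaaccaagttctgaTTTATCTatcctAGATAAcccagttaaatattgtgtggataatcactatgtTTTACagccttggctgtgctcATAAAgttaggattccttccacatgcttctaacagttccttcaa
Slc5a1, chr14:81843085-81843334: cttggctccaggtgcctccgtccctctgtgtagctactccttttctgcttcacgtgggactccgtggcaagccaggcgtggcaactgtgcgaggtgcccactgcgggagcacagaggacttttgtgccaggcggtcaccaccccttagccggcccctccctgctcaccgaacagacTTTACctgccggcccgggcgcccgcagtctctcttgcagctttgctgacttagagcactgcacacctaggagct
The Si window held 4 CDX matches and 2 GATA matches, and its GC content was 31.2%. The Lct window held 4 CDX and 2 GATA matches, at 40.8% GC, and its CDX match at -116 overlapped its GATA match at -115, counted from the start of the gene. Slc5a1 had a GC-rich window, 62.8%, with 1 CDX match. Of the other genes, Slc2a5 had 1 CDX match and Slc2a2 had no match to either motif. Such short words are common: among 33469 rat promoter windows of the same length, 53.7% held a CDX match and 27% a GATA match, and the median GC content was 51.2%. A match is a description of the letters and says nothing of a protein bound there.

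Sucrase-isomaltase was nearly absent from preCTC, present in every preSTC library, and split the postoperative libraries into a high pair and a low pair. Si stood at 1713 CPM in postSTC1, 1242 in postSTC2, 229 in postSTC5 and 261 in postSTC7. Before the operation it stood at 244 CPM in preSTC1, 139 in preSTC5, 152 in preSTC7 and 87.6 in preSTC9. The preCTC libraries held 0, 3, 7 and 6 Si reads, at most 0.180 CPM. Against the preSTC mean, postSTC1 was 11.0-fold and postSTC2 7.98-fold higher, whereas postSTC5 was 1.47-fold and postSTC7 1.68-fold higher, and postSTC5 lay below preSTC1. The group means were 861 ± 737 CPM in postSTC and 156 ± 64.9 CPM in preSTC (SD, n = 4). The log2 difference was 2.47 ± 0.64 (SE), and edgeR's quasi-likelihood test with Benjamini-Hochberg adjustment over 15704 tested genes gave an adjusted p of 0.0213. With the replicate numbers as a block, the difference was 1.60 and the edgeR adjusted p 0.123. The block takes postSTC2, whose number no other library has, out of the difference. Leaving out preSTC5, preSTC7 or preSTC9 gave an edgeR adjusted p of 0.0595, 0.0607 and 0.0675. Without postSTC1 the difference was 1.89 (edgeR adjusted p = 0.0377), without postSTC7 2.77 (adjusted p = 0.00788), and without both 2.25 (adjusted p = 0.0185).

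Lactase showed the widest spread of the 6 genes among the postSTC libraries. Library postSTC1 held 243 CPM of Lct and postSTC2 held 7.22 CPM, while postSTC5 held 0.559 CPM and postSTC7 held 0.672 CPM. In preSTC it stood at 0.291, 0.544, 0.216 and 0.140 CPM in libraries 1, 5, 7 and 9, from 5 to 21 reads each. Of the preCTC libraries, preCTC5 alone held any Lct reads, 5 in number. All 4 postSTC libraries were above all 4 preSTC libraries, but postSTC5 passed the highest preSTC library by a factor of only 1.03. That separation rested on the TMM factor of postSTC7, 0.568. With 15 reads against 21 in preSTC5, postSTC7 lay below preSTC5 in the deposited FPKM, at 0.0623 against 0.0907. Relative to the preSTC mean, postSTC1 was 816-fold, postSTC2 24.3-fold, postSTC5 1.88-fold and postSTC7 2.26-fold higher. The edgeR log2 difference of 7.69 ± 1.89 (SE, adjusted p = 0.0173) was 4.59 with the replicate block, at an adjusted p of 0.226. Without postSTC1 it was 3.23 (edgeR adjusted p = 0.0453), without postSTC7 8.12 and without both 3.70 (adjusted p = 0.0282), and the call was lost without preSTC1, preSTC7 or preSTC9, at edgeR adjusted p of 0.0545, 0.0547 and 0.0527.

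Trehalase was high in a single library. Treh stood at 78.8 CPM in postSTC1, against 3.70 in postSTC2, 1.41 in postSTC5 and 3.63 in postSTC7. The preSTC libraries 1, 5, 7 and 9 held 1.89, 1.66, 0.513 and 1.74 CPM, and preCTC 0.0523, 0.127, 0.0771 and 0.554 CPM. In all, 3 of the 4 postSTC libraries were above every preSTC library, and postSTC5 was within their range. The edgeR log2 difference between postSTC and preSTC was 3.91 ± 1.19 (SE, adjusted p = 0.0414). It was 1.00 without postSTC1 (adjusted p = 0.318), 4.28 without postSTC7, 0.82 without both (adjusted p = 0.494) and 3.38 with the replicate block (adjusted p = 0.0942). Leaving out any of preSTC1, preSTC5, preSTC7 or preSTC9 also ended the edgeR call, at adjusted p of 0.0898, 0.0897, 0.108 and 0.0898.

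For the glucose transporter of the brush border, no difference between postSTC and preSTC passed the test. Slc5a1 stood at 293, 250, 96.7 and 101 CPM in postSTC1, 2, 5 and 7, and at 168, 123, 231 and 96.0 CPM in the preSTC libraries 1, 5, 7 and 9. The same pair, postSTC1 and postSTC2, was on top, but by 1.89-fold and 1.62-fold over the preSTC mean, and postSTC5 and postSTC7 were at 0.626 and 0.653 of it. The groups overlapped, with means of 185 ± 101 and 155 ± 58.9 CPM (SD, n = 4) and a log2 difference of 0.26 ± 0.40 (SE, edgeR adjusted p = 0.685). The sign of that difference turned without postSTC1, at -0.052, and with the replicate block, at -0.10. It was 0.46 without postSTC7 and 0.17 without both libraries. In preCTC, Slc5a1 stood at 40.6, 19.7, 41.2 and 32.8 CPM, so it was the only one of the 6 genes with a level above 1 CPM there.

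For Slc2a5, the fructose transporter, any difference between postSTC and preSTC was also within the spread of the libraries. It stood at 20.9, 18.2, 9.84 and 13.7 CPM in postSTC1, 2, 5 and 7 and at 13.4, 8.16, 24.7 and 7.48 CPM in preSTC1, 5, 7 and 9. The highest of these 8 values was that of preSTC7. The log2 difference was 0.22 ± 0.37 (SE, edgeR adjusted p = 0.723), 0.046 without postSTC1, 0.27 without postSTC7 and 0.067 without both. Neither p shows that the transporter genes were unchanged. In preCTC, Slc2a5 spanned 0.193 to 0.431 CPM.

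Slc2a2, which encodes the transporter on the blood side, was high in the same pair of postSTC libraries as Si. It stood at 82.7 CPM in postSTC1, 35.4 in postSTC2, 0.931 in postSTC5 and 1.66 in postSTC7. The preSTC libraries 1, 5, 7 and 9 held 0.262, 0.337, 0.675 and 0.0280 CPM, and no read was counted in any preCTC library. Every postSTC library was above every preSTC library, by 254-fold and 109-fold over the preSTC mean in postSTC1 and postSTC2 and by 2.86-fold and 5.09-fold in postSTC5 and postSTC7. The edgeR log2 difference was 6.51 ± 1.55 (SE, adjusted p = 0.0220), 5.27 without postSTC1, 6.91 without postSTC7 and 5.79 without both. It was 3.43 with the replicate block (edgeR adjusted p = 0.252), and leaving out preSTC1, preSTC5, preSTC7 or preSTC9 gave adjusted p of 0.0674, 0.0617, 0.0524 and 0.0610.

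**Figure D1:**
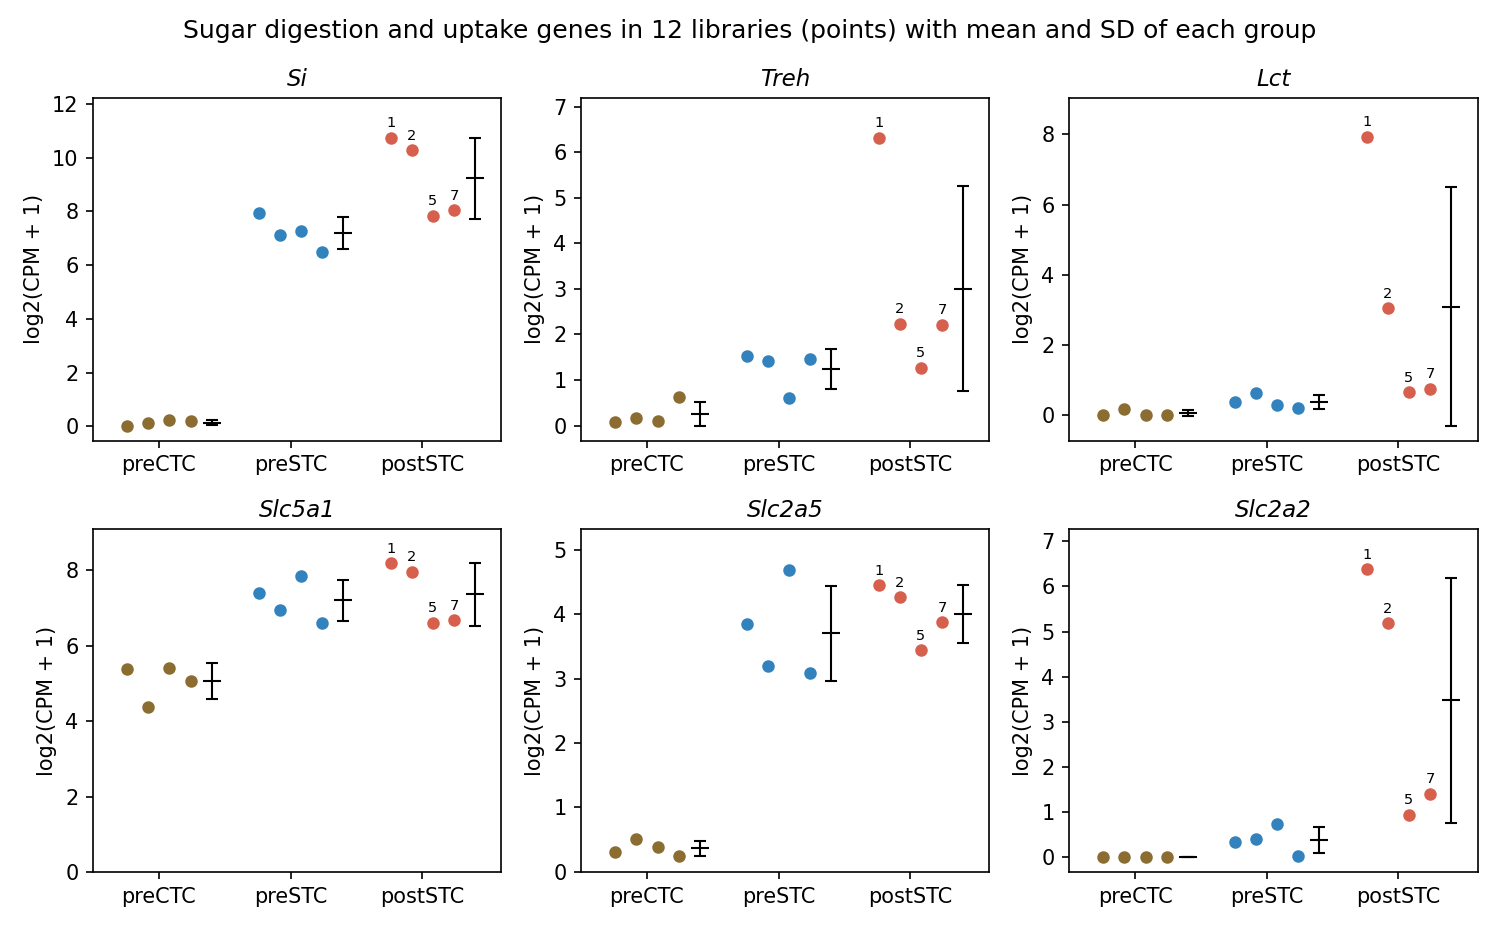
Level of each of the 6 genes in each of the 12 libraries, on a log2(CPM + 1) axis, with groups side by side and bars for the mean and SD of 4 libraries. Si and Slc2a2 were high in postSTC1 and postSTC2, Treh and Lct were highest in postSTC1, and Slc5a1 and Slc2a5 overlapped between postSTC and preSTC.

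Between postSTC and preSTC, 4 of the 6 genes (Si, Treh, Lct and Slc2a2) were higher at an edgeR adjusted p under 0.05, beside 11.1% of all tested genes called higher, 6.9% called lower and 18% called either way. With the replicate block, 0 of the 6 were called by edgeR, 2 passed an unadjusted p under 0.05, and the count over all genes went from 2833 to 1746. The block also takes postSTC2 out of the difference, a library with 1242 CPM of Si and 35.4 CPM of Slc2a2. Blocked values thus differ from the others by more than the pairing. DESeq2 called 2 (Si and Slc2a2, with no adjusted p for Treh and Lct) and limma voom 1. In 2 genes, Lct and Slc2a2, the groups did not overlap, beside 11.9% of all tested genes with every postSTC library on top and 10.2% with every one below. For Lct this held with TMM scaling and not in the deposited FPKM, where postSTC7 lay below preSTC5. The filter on low counts asked for 0.277 CPM in 4 libraries, a mark that Lct and Slc2a2 met in 4 postSTC and 2 preSTC libraries and Si and Treh in all 8. Lct and Slc2a2 were thus tested only through their postSTC levels, so the count of 4 is a description. It was also 4 with no such filter. It was 3 without postSTC1, 3 without both postSTC1 and postSTC7, and 4 without postSTC2, postSTC5 or postSTC7. It was 1 without preSTC1, 1 without preSTC5 and 0 without preSTC7 or without preSTC9, where edgeR gave 4 an unadjusted p under 0.05.

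An exact permutation test, which needs no model of the spread, passed 2 of the 6 genes. It exchanges libraries freely, and so treats the spread of both groups as alike. For Lct the SDs were 3.41 in postSTC and 0.188 in preSTC on the log2 scale. The test also takes no account of the replicate numbers, under which neither of those 2 genes was called (above). In a two-sided exact permutation test of the mean log2(CPM + 1), 4 libraries against 4, the smallest p that 70 splits allow is 0.0286. Lct and Slc2a2 reached this p, Si had an exact p of 0.0571 and Treh an exact p of 0.114. Groups that do not overlap always give the smallest p, so for Lct and Slc2a2 it repeats what was given above. Exact p was 0.714 for Slc5a1 and 0.486 for Slc2a5. These are 6 single tests with no adjustment across them.

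**Figure D2:**
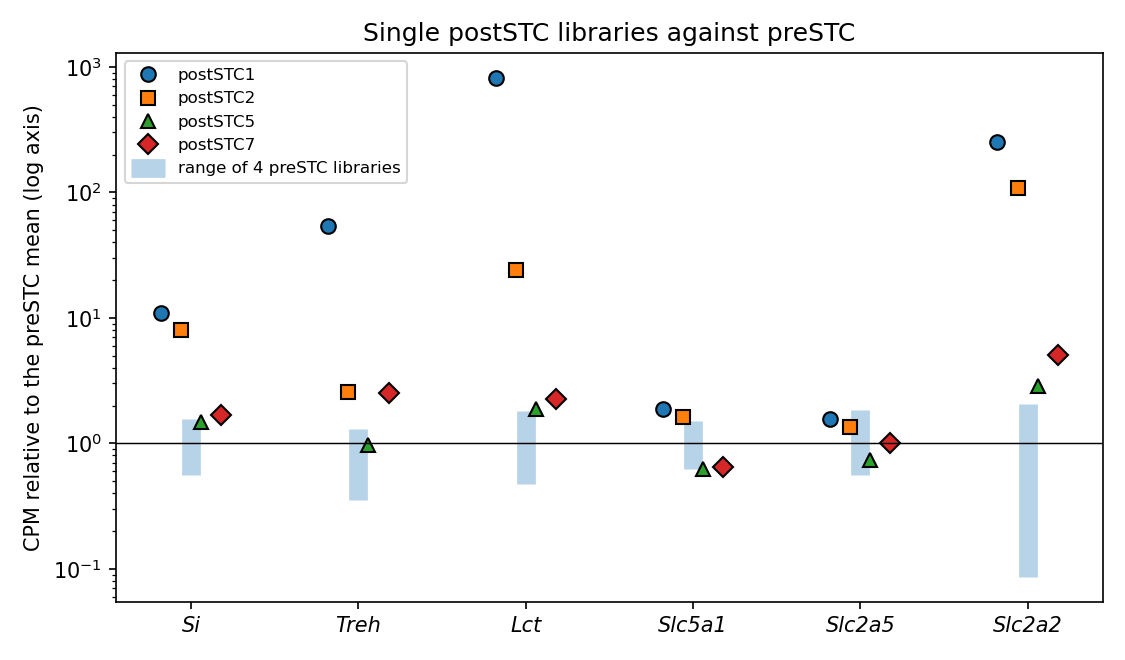
Level of each gene in the single postSTC libraries as a multiple of the preSTC mean, on a log axis, with the range of the 4 preSTC libraries as a bar. Libraries postSTC5 and postSTC7 lie within 0.626-fold and 5.09-fold of the preSTC mean, while postSTC1 reaches 816-fold for Lct.

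The other genes were then set against Slc5a1 inside each library. Per length, Si held 60.6, 47.4, 27.6 and 38.2 FPKM for every 100 FPKM of Slc5a1 in preSTC1, 5, 7 and 9. After the operation it held 245, 208, 99.1 and 108 in postSTC1, 2, 5 and 7. All 4 postoperative values were thus above all 4 preoperative ones, including the pair of libraries in which Si itself was near its preSTC level. For the test, ratios were taken from log2(CPM + 1), not divided by length, so a value of 0 does not mean equal FPKM. On that scale the log2 ratio of Si to Slc5a1 was 1.87 higher in postSTC (1.86 ± 0.66 against 0.00 ± 0.48, SD, n = 4, two-sided exact permutation p = 0.0286). Lct and Slc2a2 had ratios to Slc5a1 higher by 2.56 and 2.94 on the log2 scale, each at an exact permutation p of 0.0286. The size of these 2 differences depended on the pseudocount, since preSTC levels were below 1 CPM. With 0.1 in place of 1 they were 3.72 and 4.44, and the p was the same. The ratio of Treh was higher by 1.60 (exact p = 0.171) and that of Slc2a5 by 0.14 (exact p = 0.629). The share of all genes whose ratio to Slc5a1 separates the groups was not computed.

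Summed per length, the 6 genes gave 56.5 to 128 FPKM in preSTC and 509, 327, 81.4 and 91.1 FPKM in postSTC1, 2, 5 and 7. Slc5a1 made up 58.7% to 71.7% of this sum in preSTC and Si 19.8% to 35.6%. In postSTC the order turned in 3 libraries and was nearly even in the other: Si made up 55.8%, 63.1%, 46.6% and 47.5% and Slc5a1 22.8%, 30.3%, 47.1% and 43.8% in postSTC1, 2, 5 and 7. Lactase reached 7.80% and trehalase 6.65% of the sum in postSTC1, and in each other library Lct was at most 0.361%. Slc2a2 made up 5.28% in postSTC1 and 3.52% in postSTC2. In preCTC the sum was 8.07 to 16.5 FPKM, of which Slc5a1 made up 96.7% to 99.3%.

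**Figure D3:**
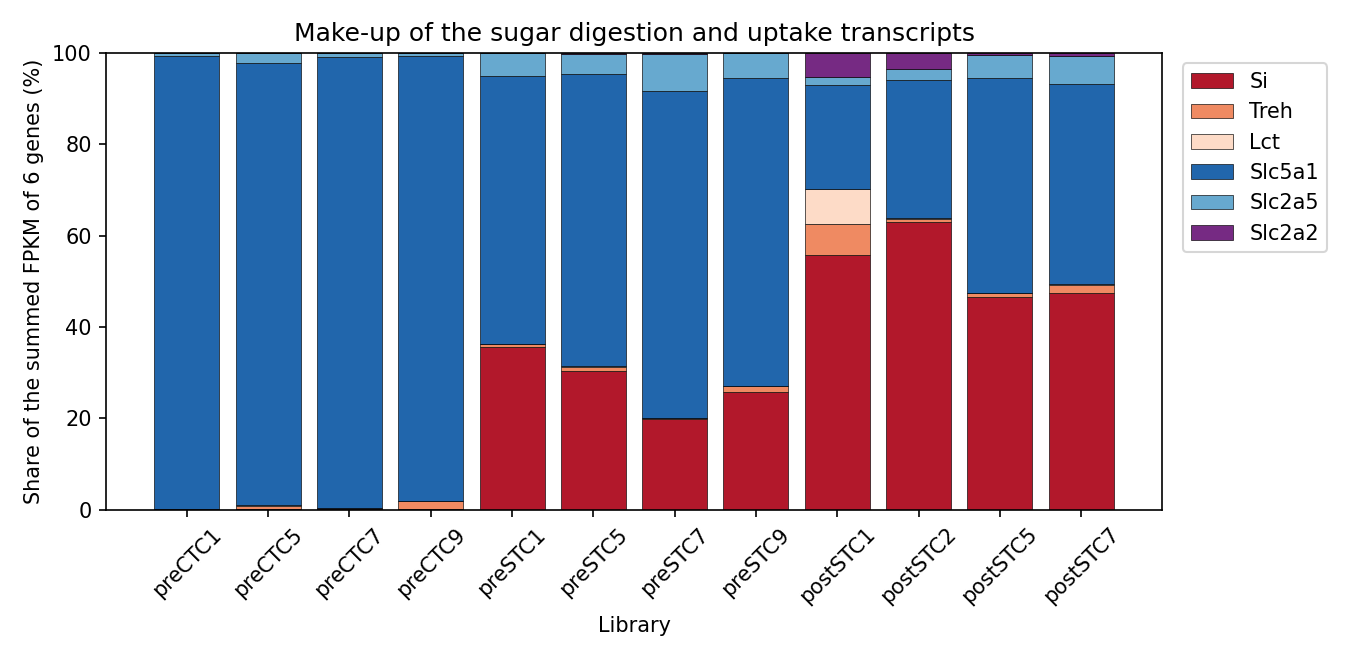
Share of each gene in the summed FPKM of the 6 genes, in percent, for each library. Slc5a1 fills nearly the whole bar in preCTC and most of it in preSTC, while Si has the largest share in postSTC1, postSTC2 and postSTC7.

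Levels relative to the epithelial markers were compared next, because these were lower in some postSTC libraries. The markers did not all move alike: edgeR called 2 of the 10 lower in postSTC than in preSTC and 0 higher. What part changes in single markers have in the ratio was not tested. The log2 ratio to the mean of the 10 epithelial markers was higher in postSTC than in preSTC by 2.54 for Si, 2.28 for Treh, 3.24 for Lct and 3.62 for Slc2a2, each at a two-sided exact permutation p of 0.0286. Dividing by these markers moves every gene of a library alike, so these p-values describe the ratio and do not replace those above for Si (exact p = 0.0571) and Treh (exact p = 0.114). On this scale Slc5a1 was higher by 0.68 (exact p = 0.171) and Slc2a5 by 0.82 (exact p = 0.0857). In edgeR, library sizes taken from the epithelial markers moved the median log2 difference of all genes from 0.04 to 0.68, so that values on this scale are read relative to that shift. Slc5a1, at 0.75, and Slc2a5, at 0.81, were then close to the shift, whereas Si was at 2.87, Treh at 4.12, Slc2a2 at 6.77 and Lct at 7.82. With these library sizes edgeR called 7098 of all genes higher and 106 lower, against 1749 and 1084 with TMM. A higher value is thus common on this scale, and the share of all genes that separate on the ratio was not computed.

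The spread among the 4 postSTC libraries was itself wide. Lct had a log2 range of 8.63, which ranked 27 among 15704 genes, the top 0.172%. Slc2a2 ranked 69 with a range of 6.39 and Treh 108 with 5.75, against a median range of 0.79 over all genes. Si had a range of 2.90 (top 5.29%), Slc5a1 1.60 (top 19%) and Slc2a5 1.08 (top 35.4%). In preSTC the highest library exceeded the lowest by 2.40-fold for Slc5a1 and 3.88-fold for Lct, with Slc2a2, at few reads, reaching 24.1-fold. The spread in postSTC was therefore concentrated in Lct, Slc2a2 and Treh, and the lowest libraries were the same pair, postSTC5 and postSTC7, for each of Si, Lct, Slc2a2, Slc5a1 and Slc2a5.

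Among the postSTC libraries, summed markers of the proximal small intestine were high in postSTC1 alone. The 9 proximal markers summed to 4858 CPM in postSTC1, 1077 to 1180 CPM in the other 3 postSTC libraries, 2090 to 2704 CPM in preSTC and 178 to 204 CPM in preCTC. Some genes of the list, picked out after their values were seen, had nearly all their reads in postSTC1. The duodenal and jejunal regulator Gata4 stood at 28.6 CPM there and at most 0.414 CPM elsewhere, Pdx1 at 5.01 against at most 0.345, and Onecut2 at 2.88 against at most 0.133. Apoa4, an apolipoprotein of the proximal gut, stood at 2966 CPM in postSTC1 and at 91.2 to 186 CPM in the other postSTC libraries. Other members of the list did not follow. Fabp1 was at 1621 CPM in postSTC1 and 1904 to 2500 CPM in preSTC. Cybrd1 was at 20.7 CPM in postSTC1 and 28.1 to 35.1 CPM in preSTC. Cyp2b21 was at 0 in postSTC1, postSTC2, postSTC5 and every preSTC and preCTC library, and at 0.94 CPM in postSTC7. Of the 5 proximal markers tested, edgeR called 1, Slc40a1, higher in postSTC than in preSTC. This gene was highest in preCTC, at 121.8 to 144.8 CPM, against 26.2 to 112.7 CPM in postSTC and 21.8 to 29.55 CPM in preSTC. In postSTC2, where Si and Slc2a2 were also high, Gata4 stood at 0.148 CPM and Apoa4 at 149 CPM, near the preSTC levels. The ileum markers summed to 5231 CPM in postSTC1 and 1995 to 4062 CPM in the other postSTC libraries, against 5716 to 6818 CPM in preSTC. What part the segment sampled has in these values was not tested.

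**Figure D4:**
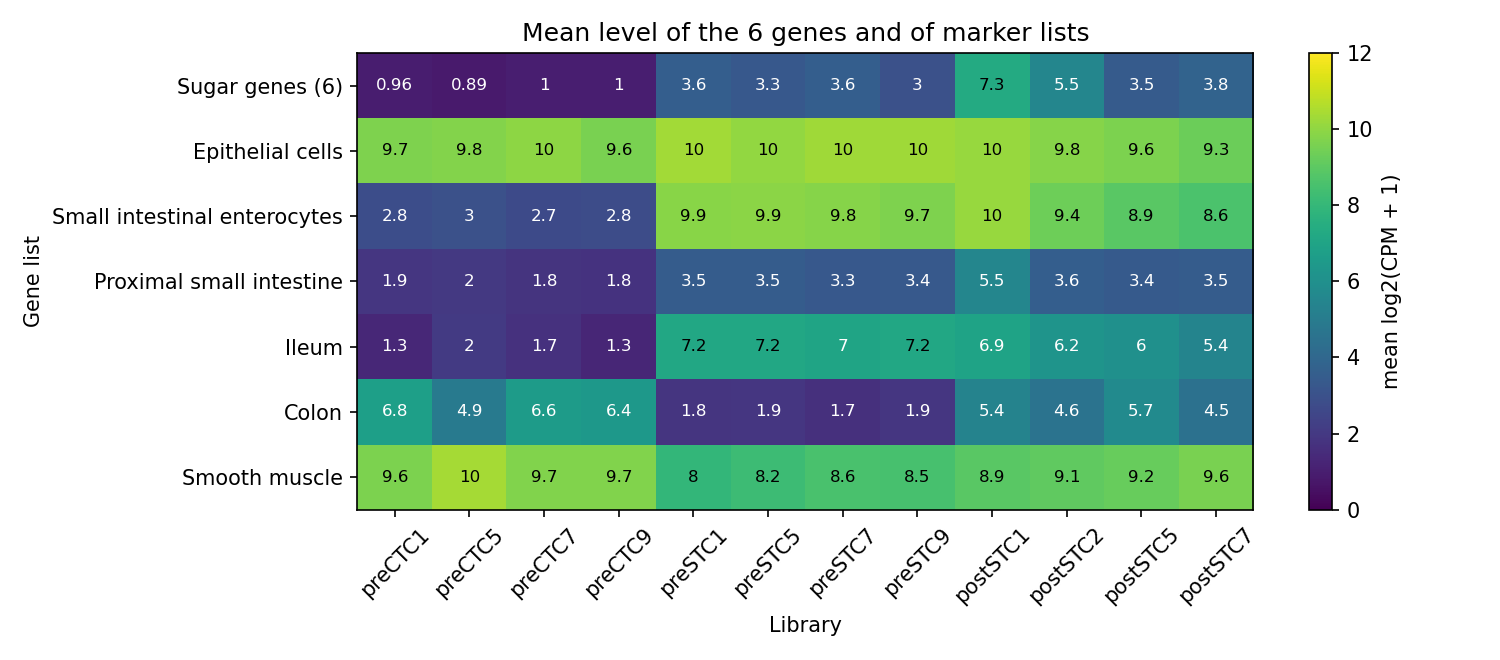
Mean log2(CPM + 1) of the 6 genes and of each marker list in each library, as colour and printed value. The 6 genes range from 0.889 to 1.03 in preCTC and reach 7.34 in postSTC1, where the proximal list is also highest, at 5.51.

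The groups taken before any operation differed widely in sugar genes. Between preSTC and preCTC, both baselines, 3 of the 6 genes (Si, Slc5a1 and Slc2a5) were higher in preSTC by edgeR, beside 19.1% of all genes called higher, 19.6% lower and 38.7% either way. Si was higher by 10.54 ± 0.98 in log2 units (SE, edgeR adjusted p = 1.38e-05), from 0.10 ± 0.080 to 156 ± 64.9 CPM (SD, n = 4). Slc2a5 was higher by 5.51 ± 0.48 (adjusted p = 8.42e-06) and Slc5a1 by 2.20 ± 0.41 (adjusted p = 0.00151). All genes but Treh, 5 of the 6, had every preSTC library above every preCTC library, beside 22.5% of all genes. For Lct the margin was 0.140 CPM in preSTC9 over 0.127 CPM in preCTC5, at 5 reads each. Lct and Slc2a2 were tested only through their postSTC levels, so the count of 5 is a description. Slc2a2 was at 0 reads in preCTC, which allows up to 0.019 CPM over the group, and the preSTC mean was at least 17.1-fold above that limit, its lowest library at least 1.48-fold. With 1 read, that library, preSTC9, carries a wide counting error, and edgeR did not call Slc2a2 (adjusted p = 0.148). The differences of Lct (3.11 ± 2.93, edgeR adjusted p = 0.426) and Treh (2.80 ± 1.30, adjusted p = 0.108) did not pass either. In preCTC, Lct had 5 reads in all and Treh had 2, 5, 3 and 23 reads. Relative to the epithelial markers, Si, Slc5a1 and Slc2a5 were higher in preSTC by 6.59, 1.67 and 2.86 on the log2 scale, each at an exact permutation p of 0.0286. The share of all genes that separate on this ratio was not computed. All 8 enterocyte markers were higher and all 10 colon markers lower in preSTC by edgeR, and what part the kind of tissue has in the differences of the sugar genes was not tested.

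Between postSTC and preCTC all 6 genes were higher and none overlapped, beside 9.27% of all genes called higher by edgeR, 7.37% lower and 16.6% either way. Every postSTC library was on top in 9.54% of all genes and at the bottom in 8.6%. This comparison shares its groups with the 2 above. Lct and Slc2a2 met the filter on low counts in 0 preCTC, 2 preSTC and 4 postSTC libraries. They were thus tested only through their postSTC levels, so the count of 6 is a description. Si was higher by 13.01 ± 1.05 in log2 units (SE, edgeR adjusted p = 1.02e-05), Slc2a5 by 5.73 ± 0.48 (adjusted p = 1.41e-05) and Slc5a1 by 2.46 ± 0.42 (adjusted p = 0.00211). Lct was higher by 10.81 ± 2.36 (adjusted p = 0.00902) and Treh by 6.71 ± 1.41 (adjusted p = 0.00761). Slc2a2 was at least 1590-fold above the preCTC limit in the mean of postSTC and at least 49.1-fold in its lowest library. With the replicate block, 4 of the 6 were called by edgeR. The median log2 difference of the 6 genes was 8.76, against 0.04 over all genes.

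**Figure D5:**
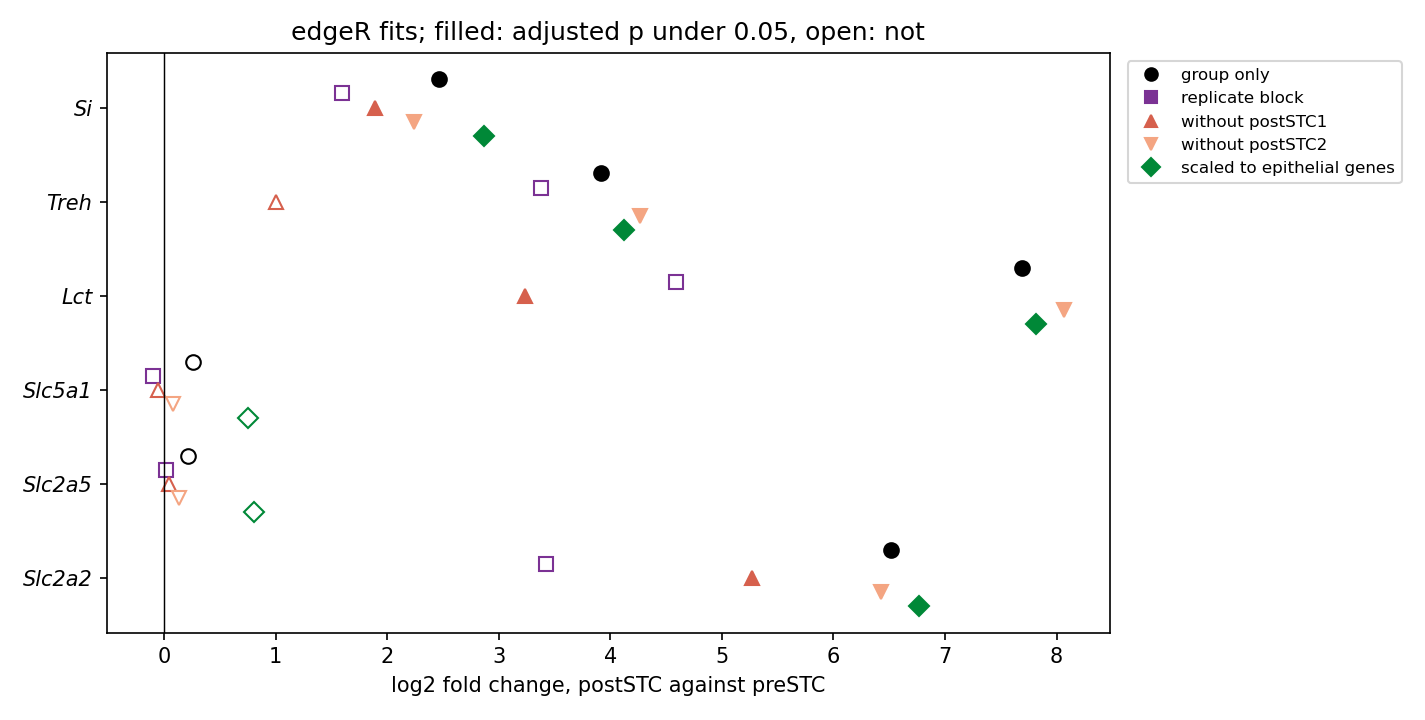
Log2 difference between postSTC and preSTC for each gene in 5 edgeR fits, with filled symbols at an adjusted p under 0.05. Si, Treh, Lct and Slc2a2 are above 0 in each of these fits, while Slc5a1 falls on either side of 0, from -0.10 to 0.75.

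Other genes of sugar handling were followed in lists chosen by name. Their counts are to be read beside the share of all tested genes that edgeR called either way, 18% for postSTC against preSTC, 38.7% for preSTC against preCTC and 16.6% for postSTC against preCTC. Of 5 other sugar-cleaving enzyme genes, 2 were tested between postSTC and preSTC. Maltase-glucoamylase, Mgam, a brush border enzyme that cuts starch fragments, fell from 335 ± 55.5 to 181 ± 48.8 CPM (SD, n = 4), with a log2 difference of -0.89 ± 0.20 (SE) and an edgeR adjusted p of 0.0107. Its 4 postSTC libraries, 110 to 220 CPM, lay below its 4 preSTC libraries, 256 to 382 CPM, so that it went the opposite way to Si. With library sizes from the epithelial markers, Mgam was at -0.34 (edgeR adjusted p = 0.127), below the shift of all genes. The lysosomal glucosidase Gaa rose by 0.87 ± 0.14 (edgeR adjusted p = 0.00253).

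Among 14 other sugar transporter genes, 9 were tested and edgeR called 3, all higher in postSTC than in preSTC, or 2 higher and 1 lower with the replicate block. Slc2a13, a myo-inositol transporter gene, rose by 1.69 ± 0.23 on the log2 scale (SE, adjusted p = 0.00141). Slc2a1, the glucose transporter gene of many cell types, rose by 0.94 ± 0.15 (adjusted p = 0.00239), with 25.4 to 29.3 CPM in preSTC, 38.0 to 66.2 CPM in postSTC and 106 to 137 CPM in preCTC. Slc2a12 was higher by 1.82 ± 0.56 (adjusted p = 0.0438), but this was 0.74 without postSTC7 (adjusted p = 0.106) and its adjusted p was 0.123 with the block. It was 0.0993, 0.0808, 0.114 and 0.0879 without preSTC1, 5, 7 or 9. Smooth muscle markers, 8 in number, moved with these values, summing to 5498 to 8401 CPM in postSTC, 3068 to 4719 CPM in preSTC and 10019 to 16895 CPM in preCTC, and 5 of the 8 were higher in postSTC than in preSTC. Colon markers moved with them too: 7 of 10 were higher in postSTC than in preSTC by edgeR, at sums of 397 to 930 CPM in postSTC, 185 to 244 CPM in preSTC and 2095 to 4512 CPM in preCTC. The part of these cells and of the segment sampled in the result was not tested. Between preSTC and preCTC, 3 of the 9 were higher and 2 lower. Slc5a11, another inositol transporter gene, was higher by 8.82 ± 0.78 and Slc5a9, a transporter gene of mannose and glucose, by 5.69 ± 0.82 (edgeR adjusted p = 9.38e-06 and 0.000275), while Slc2a13 was lower by 3.02 ± 0.24 and Slc2a1 by 2.11 ± 0.15 (adjusted p = 4.64e-06 and 2.27e-06). Against preCTC, postSTC had 3 higher and 2 lower of the 9, with Slc5a11 higher by 8.29, Slc5a9 by 5.93 and Slc2a9 by 1.51, and Slc2a13 at -1.33. Outside the tested genes, Slc5a4, a relative of Slc5a1, stood at 12.2 CPM in postSTC1, 1.16 in postSTC2 and 0 in every other library. Slc2a7 and Slc5a4b, at 1.03 and 1.07 CPM, had reads in postSTC1 alone. These 3 genes were picked out after their values were seen.

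Of 22 genes of sugar metabolism, 21 were in the table and 19 were tested, with 4 higher and 2 lower in postSTC than in preSTC by edgeR, and 3 higher and 1 lower with the replicate block. G6pc1, the glucose-6-phosphatase that releases free glucose, stood at 15.3, 8.26, 4.23 and 2.15 CPM in postSTC1, 2, 5 and 7 and at 0.0270 to 1.17 CPM in preSTC. Its log2 difference was 3.74 ± 0.93 (SE, edgeR adjusted p = 0.0182), with an adjusted p of 0.0569 without preSTC1 and 0.0515 without preSTC9. Pck1, the other key gene of glucose synthesis, was higher by 3.14 ± 0.73 (adjusted p = 0.0140, and 0.0756 with the block), at 138, 157, 294 and 20.1 CPM in postSTC1, 2, 5 and 7 against 8.83 to 36.0 CPM in preSTC. The hexokinase genes went opposite ways: Hk2 fell by 1.26 ± 0.28 (adjusted p = 0.0117) and Hk1 rose by 1.10 ± 0.22 (adjusted p = 0.00681). With library sizes from the epithelial markers, Hk2 was at -0.59 (edgeR adjusted p = 0.105), where the median of all genes was at 0.68 in place of 0.04. Tkfc and Khk, whose enzymes act in the breakdown of fructose, did not pass the test but were also highest in postSTC1 and postSTC2. Tkfc stood at 297, 203, 60.7 and 72.6 CPM in postSTC1, 2, 5 and 7 and 63.0 to 101 CPM in preSTC (edgeR adjusted p = 0.145), and Khk at 84.9, 60.5, 24.7 and 20.1 against 25.6 to 49.1 CPM (edgeR adjusted p = 0.434). Both were named after their values were seen.

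At baseline, 7 of the 19 metabolic genes were higher and 5 lower in preSTC than in preCTC by edgeR. Pck1 was lower by 4.39 ± 0.78 (SE, adjusted p = 0.00102), while Tkfc was higher by 2.57 ± 0.43 (adjusted p = 0.000741) and the pyruvate kinase gene Pklr by 2.36 ± 0.41 (adjusted p = 0.000893). Against preCTC, postSTC had 7 higher and 1 lower, with G6pc1 higher by 5.78, Tkfc by 3.47 and Pklr by 2.30 on the log2 scale.

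Of 11 genes of sugar sensing and sodium drive, 9 were tested and edgeR called 2, both higher in postSTC than in preSTC, or 1 with the replicate block. Both are arrestin-domain genes that glucose is known to induce. Txnip was higher by 1.04 ± 0.27 (SE, adjusted p = 0.0225), at 531 to 826 CPM in postSTC against 247 to 482 CPM in preSTC, and its adjusted p was 0.0581 without postSTC5 and 0.0577, 0.0707 and 0.0732 without preSTC5, 7 or 9. Arrdc4 was higher by 0.89 ± 0.25 (adjusted p = 0.0314, and 0.0568 with the block), with adjusted p of 0.0563, 0.0810, 0.0577, 0.0826 and 0.0786 without postSTC1, postSTC2, preSTC5, preSTC7 or preSTC9. Between preSTC and preCTC, Txnip was lower by 1.63 ± 0.28 (adjusted p = 0.000794). Mlx, partner of the glucose-responsive factor ChREBP, was higher by 0.30 ± 0.11 (adjusted p = 0.0420), a value that was -0.11 with library sizes from the epithelial markers, a scaling that moved the median of all genes from -0.02 to -0.43 in this comparison. Its adjusted p was between 0.0723 and 0.123 without any of preCTC1, preCTC7, preCTC9, preSTC1, preSTC7 or preSTC9. Against preCTC, postSTC had 1 of the 9 higher, the taste G protein gene Gnat3, by 1.63 (adjusted p = 0.0373). Its adjusted p was 0.0600 to 0.108 without postSTC1, postSTC2, preCTC1, preCTC5 or preCTC7, and 0.139 with the block. In preCTC, where the sugar genes were low, Txnip stood at 694 to 1461 CPM and Arrdc4 at 53.29 to 78.85 CPM. Arrdc4 was at 27.69 to 52.8 CPM in preSTC and 48.68 to 107 CPM in postSTC. The part of the segment sampled in the values of Txnip and Arrdc4 was not tested.

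Of 20 genes of transcription regulators, 16 were tested between postSTC and preSTC and edgeR called 1, or 1 higher and 1 lower with the replicate block. That gene was Foxa2, higher by 1.40 ± 0.30 (SE, adjusted p = 0.00998). Members of the CDX and GATA families, whose motifs were searched upstream of Si and Lct, include Cdx1, Cdx2, Gata4, Gata5 and Gata6. Gata4, at 28.6 CPM in postSTC1 and at most 0.414 CPM elsewhere, did not pass the filter on low counts. Of those tested, none passed: Cdx1 was at -0.11 (edgeR adjusted p = 0.746), Cdx2 at -0.73 (adjusted p = 0.113), Gata5 at -0.65 (adjusted p = 0.112) and Gata6 at -0.31 (adjusted p = 0.390). At baseline, 4 were higher and 7 lower in preSTC than in preCTC. Gata5, a regulator of small intestinal epithelium, stood at 87.1 ± 8.06 CPM in preSTC and 0.281 ± 0.0982 CPM in preCTC (SD, n = 4), a log2 difference of 8.27 ± 0.39 (edgeR adjusted p = 1.03e-07). Hnf4g was higher by 2.79, Prdm1 by 2.49 and Foxa2 lower by 2.72 (adjusted p = 0.00166, 5.52e-05 and 6.14e-05). Against preCTC, postSTC had 3 higher and 7 lower. Gata5 was higher by 7.61, Hnf4g by 1.96 and Prdm1 by 1.66 (edgeR adjusted p = 2.36e-07, 0.0230 and 0.00194). The Hnf4g call was lost with the replicate block, at 0.0800, and at 0.0517 to 0.0666 without postSTC1, preCTC1, preCTC7 or preCTC9.

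The 6 genes had a median log2 difference of 3.19 for postSTC over preSTC and 4.31 for preSTC over preCTC, beside 0.04 and -0.02 over all genes. Marker lists had medians of the same kind for preSTC over preCTC, at 6.79 for enterocytes, 6.29 for ileum and 4.15 for the proximal list. For postSTC over preSTC these were -0.60, -0.92 and 1.39, and the colon list had a median of 5.70. In that comparison the other sugar lists were at -0.01 for the other enzymes, 0.33 for the other transporters, 0.40 for metabolism, 0.22 for sensing and -0.24 for the regulators.

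The genes whose pattern over the 12 libraries was most like that of Si, by Pearson correlation of log2 CPM, were Hnmt (0.99), Creb3l3 (0.99), Slc28a1 (0.98), Aqp7 (0.98) and Apob (0.98). All 12 libraries enter these values, preCTC included, and each library's scaling is shared by all its genes. Within the postoperative group Creb3l3, a liver and gut factor of lipid metabolism, stood at 145, 59.6, 29.1 and 23.5 CPM in postSTC1, 2, 5 and 7, against 21.4 to 53.3 CPM in preSTC. Genes most like Lct included Rb1cc1 (0.95), Kcnk10 (0.94), Ace (0.91) and Cyp2d3 (0.91). Ace, a peptidase of the brush border, stood at 816 CPM in postSTC1, against 79.3 to 196 CPM in the other postSTC libraries and 101 to 149 CPM in preSTC.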

How the data were processed

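Rat intestine RNA was sequenced in 12 libraries, 4 in each of postSTC, preSTC and preCTC, grouped by the sample titles and labels. The authors deposited whole read counts per gene and, per the file headers, FPKM values, which equal the counts divided by library total and gene length. The submitters' processing notes name fastp, HISAT2, HTSeq and mRatBN7.2. The sources used here do not give versions or whether counting used strand. The series' design text describes another species and kit and was not used. TRIzol extraction and a VAHTS kit come from the labels' protocols.

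From the deposited counts, edgeR 4.0.16 in R 4.3.3 fitted all 12 libraries by group (TMM, filter on low counts, quasi-likelihood F-test, Benjamini-Hochberg adjustment over 15704 of 18749 genes, called at adjusted p under 0.05), and the script was tested on simulated counts. The standard error is the log2 difference divided by the square root of F. Exact permutation tests used log2(CPM + 1) in SciPy 1.17.1, two-sided. Levels between genes used FPKM scaled by the TMM factor. Alternatives were DESeq2 1.42.0, limma 3.58.1 (voom, and trend on log2 FPKM with pseudocounts 0.1 and 1), other scalings, no filter, fits of 8 libraries, the replicate block and libraries left out. Totals of 30095656 to 39374682 reads make genes below about 1 CPM imprecise, and intervals and floors cover counting error only.

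Replicate numbers were checked as pairs: same-numbered postSTC and preSTC libraries deviated together from their group means (correlations 0.236, 0.158 and 0.168 for numbers 1, 5 and 7), so blocked values stand beside the results they change. That pairing comes from the data, and the labels state none. The single postSTC2 library has no partner, so blocked fits take no difference from it.

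The genes, lists and motifs were chosen with earlier results of these data known. Named were all 6 genes, up to 4 called genes per list and comparison with the largest change, and the 5 genes most correlated with Si and with Lct. Some genes that this rule names, and 1 searched motif, are not reported here. Gene identifiers matched RefSeq's table for 18531 genes (98.8%). The table does not hold G6pc or Rsc1a1.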

Additional observations from a re-analysis of the deposited data

Results flagged for a closer look

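Each gene was searched in each group of 4 libraries for a value far from the other 3, by Dixon's criterion on the gap to the nearest value. Of 17 groups tested, 5 held one. The criterion's rate of about 1 in 20 holds for normally distributed values, which CPM at few reads are not. The count of 5 is therefore a description and is not set against that rate. Lactase in postSTC1 stood at 243 CPM, with the next library at 7.22 CPM. Trehalase in postSTC1 stood at 78.8 CPM, with the next at 3.70 CPM. Trehalase was also low in preSTC7, at 0.513 CPM against 1.66 CPM or more in the other preSTC libraries, and high in preCTC9, at 0.554 CPM against at most 0.127 CPM. Lactase in preCTC5, at 0.127 CPM, rested on 5 reads, and the other preCTC libraries held 0.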

How the results depend on the processing

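Of 6 genes, edgeR called 4 in postSTC against preSTC. DESeq2 called 2, limma voom 1, an edgeR fit of the 8 libraries compared 2, limma on FPKM 0 with either pseudocount (3 and 2 at an unadjusted p under 0.05), and leaving out single libraries gave 0 to 4. With the replicate block edgeR called 0, both over all 12 libraries and over 8 (2 and 1 unadjusted). Over 12 libraries it ended, among the other named genes of that comparison, the calls of Slc2a12, Pck1 and Arrdc4 and no other. In postSTC against preCTC the 6 calls became 3 with limma voom, 3 with FPKM and a pseudocount of 1, and 3 with the replicate block over 8 libraries. The 3 calls of preSTC against preCTC stayed within 3 to 4. Slc5a1 in postSTC against preSTC reversed to -0.27 (replicate block, 8 libraries) and -0.10 (replicate block, 12 libraries) and, with single libraries left out, ranged from -0.052 (without postSTC1) to 0.52 (without preSTC7). Mlx in preSTC against preCTC went from 0.30 to -0.11 with epithelial library sizes, which moved the median of all genes there from -0.023 to -0.43, so relative to that median its sign held. On raw totals, exact tests of postSTC against preSTC passed 1 gene, Slc2a2, instead of 2, with Lct at an exact p of 0.0571. With a pseudocount of 0.1, ratios to Slc5a1 in preSTC against preCTC passed 2 of 5 genes instead of 4. The cause was not tested.

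Of 120 alternative values for the 6 genes in postSTC against preSTC, 80 kept direction and side of the threshold or had no adjusted p, 37 fell short of it and 3 reversed. All 37 were values of the called genes Si, Treh, Lct and Slc2a2, with 20 alternatives each. Slc5a1 and Slc2a5, also with 20 each, passed the threshold in no alternative and so could not fall short of it. The 3 reversals were of Slc5a1. The count of 80 over all 6 genes therefore overstates how often the calls held. The DESeq2 values of Treh and Lct, with no adjusted p, are among the 80, and neither direction nor threshold was checked for them. In preSTC against preCTC, 107 of 110 kept both and 3 newly passed, and in postSTC against preCTC 108 of 120 kept both and 12 fell short. Any value with no adjusted p was counted as kept there too. The count over all genes in postSTC against preSTC was 2833, and 7204 with epithelial library sizes, 1746 and 66 with the replicate block over 12 and 8 libraries, and 653 and 521 with FPKM. Epithelial library sizes moved the split from 1749 higher and 1084 lower to 7098 and 106. Between preSTC and preCTC, same-numbered libraries had correlations of 0.222, 0.171 and 0.145 for numbers 1, 7 and 9, but -0.0278 for number 5. Between postSTC and preCTC they were 0.22, -0.0159 and 0.0544 for numbers 1, 5 and 7. Numbers in the groups with preCTC thus did not pair throughout, and the block there assumes a pairing that not all numbers show. Libraries preSTC5 and postSTC5 both correlated best with preCTC9. Exact tests with a library left out cannot pass 0.05 and were not run. Lct, Slc2a2 and Treh rest on few reads outside postSTC, which limits their fold changes.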
